A study of Mus musculus with 8 samples.

Results

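The genes described here encode the mitochondrial respiratory chain and ATP synthase. They comprise 82 of the 14351 gene symbols on the array. A gene belonged if the platform annotation gave its row exactly 1 symbol and that symbol began with Nduf, Uqcr or Atp5, began with Cox and a digit, or was Sdha, Sdhb, Sdhc, Sdhd, Cyc1 or Cycs. Symbols marked as pseudogene copies were left out, as were 10 rows that carry such a symbol beside other genes. The rule matched 85 rows, and 3 genes had 2 rows each, of which the brighter was used. The choice rests on gene names and not on measured values.

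Complex I takes electrons from NADH and complex II from succinate, and both pass them through ubiquinone to complex III. Cytochrome c carries them on to complex IV, which reduces oxygen, and the proton gradient built along the way drives ATP synthase. Complexes I, III, IV and ATP synthase each also hold subunits encoded in mitochondrial DNA, which the rule does not cover. Dividing granule neuron precursors and hedgehog-driven medulloblastomas are known for taking up much glucose and turning it to lactate while oxygen is present, and granule neurons shift towards respiration as they mature.

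RNA was measured in 3 groups of mouse cerebellar samples with 1 array per sample. Medulloblastomas (n = 4) came from adult mice of genotype RosaGli1-FLAG c/c;Math1-Cre;Ptc+/-. Ptc+/- granule neuron precursors, abbreviated GNPs (n = 2), carried 1 altered allele of Ptch1, the hedgehog receptor gene, and were taken at postnatal day 8. Gli1-FLAG GNPs (n = 2), also of postnatal day 8, came from RosaGli1-FLAG c/c mice crossed to Math1Cre, in which Cre acts in the Math1 (Atoh1) lineage to switch on a tagged form of the hedgehog effector Gli1. No unaltered GNPs are analysed here. Both alterations are joined only in the tumours, and tumours differ from GNPs also in age and preparation, so disease, age and preparation cannot be told apart.

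Median deposited intensity ran from 109 to 310 between arrays, highest in medulloblastoma 4 and Ptc+/- GNP 1. After quantile normalization, values are given as log2 intensity. Markers of granule neuron precursors were bright in all 3 groups, with a summed intensity over 9 measured markers of 15680 to 17580 in Ptc+/- GNPs, 17130 to 17510 in the Gli1-FLAG group and 20230 to 24280 in tumours. Of the 9, 5 rose in tumours against Ptc+/- GNPs (Gli1, Atoh1, Ccnd1, Mycn and Barhl1), 1 fell (Pax6) and 3 did not pass. Gli1 rose by 1.29 ± 0.17 (log2 fold change ± SE, adjusted p = 0.00666), and Pax6 had -1.38 ± 0.35 (adjusted p = 0.0373). The groups also differ in the sum of 2 Y-linked genes, at 753.1 to 774.4 in Ptc+/- GNPs and 34.38 to 40.56 in Gli1-FLAG GNPs, so sex or pooling of animals cannot be told apart from genotype there. In medulloblastomas 1 to 4 the sum was 756.5, 484.8, 45 and 678.6, so medulloblastoma 3 stood with the Gli1-FLAG GNPs in this measure.

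Transcripts of the respiratory chain were bright. Averaged over arrays, 76 of the 82 genes lay above the 50th percentile of all rows, and their median percentile was 85.1. Such a rank depends on the probes of each row and does not compare amounts between genes. Atp5b, the catalytic beta subunit of ATP synthase, was the brightest at the 99.7th percentile. Cox7b2 was the dimmest at the 8.3th percentile, and the muscle isoform Cox8b followed at the 21.9th. With no detection call beside the values, the faintest rows may be background alone.

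**Figure D1:**
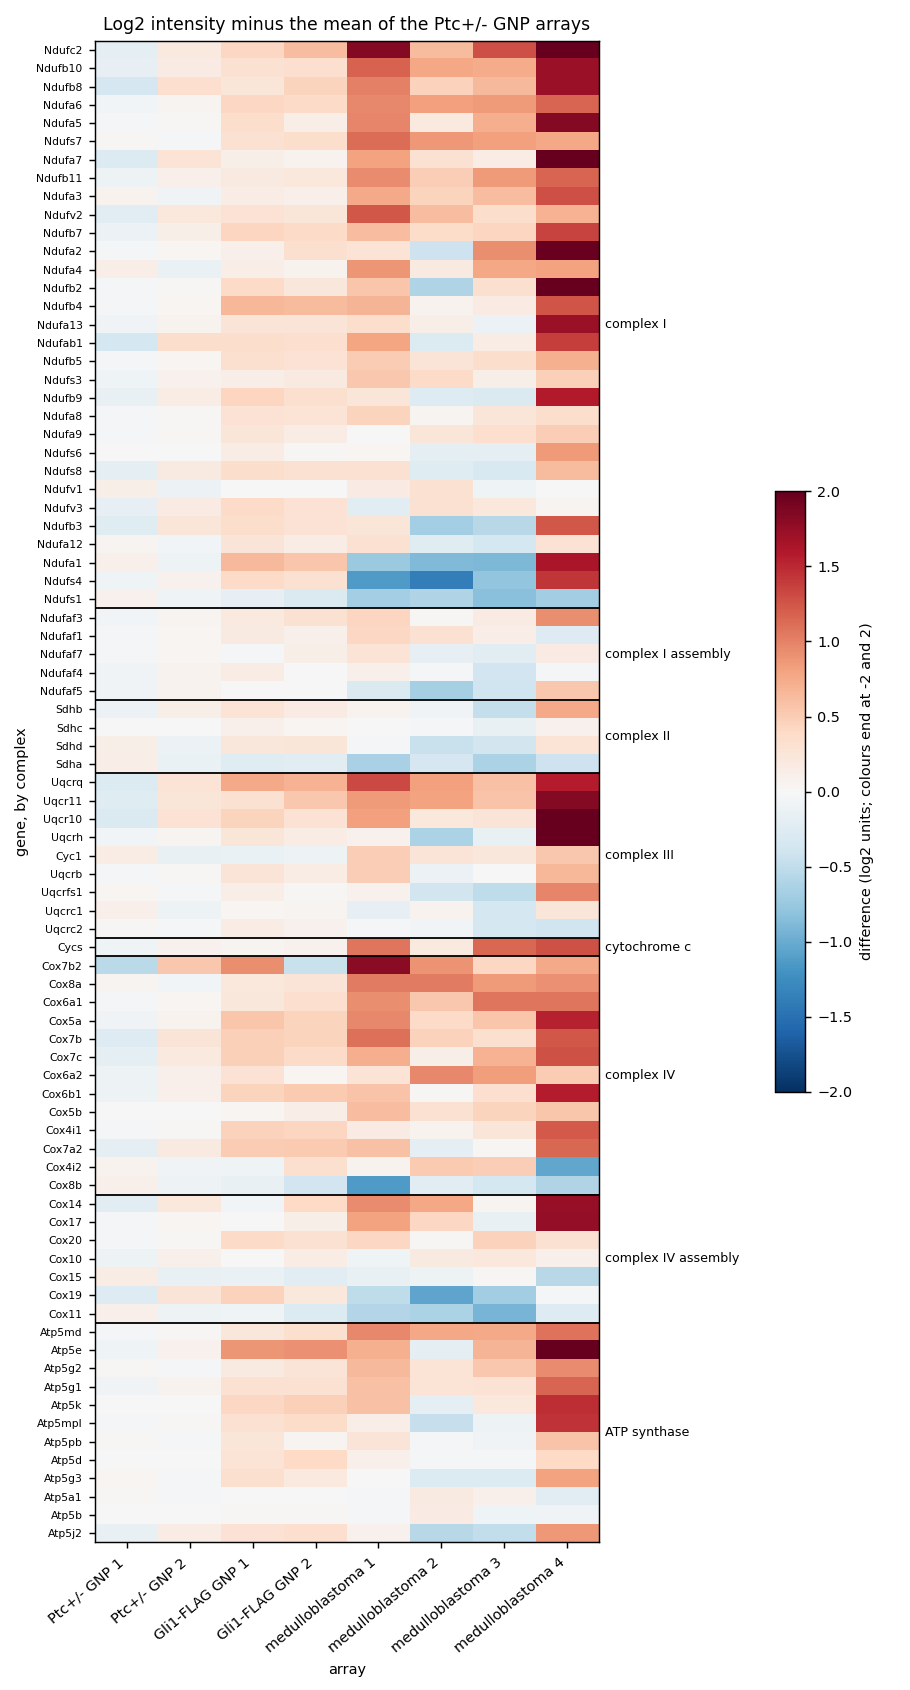
Heat map of the 82 genes (rows, ordered by complex) on the 8 arrays (columns), as log2 intensity minus the mean of the Ptc+/- GNPs, with colours ending at 2 log2 units either way. Most rows are raised in both Gli1-FLAG GNPs and in medulloblastomas 1 and 4. Relative to both Ptc+/- arrays, medulloblastoma 1 has 60 rows above and 11 below, and medulloblastoma 4 has 67 above and 10 below. Medulloblastomas 2 and 3 are more mixed (43 above and 30 below on each).

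Tumours were first compared with Ptc+/- GNPs, the comparison named in the study's design. Of the 82 genes, 8 rose, 1 fell and 73 did not pass the threshold of an adjusted p of 0.05. Across all 16317 rows, 7.54% rose and 8.92% fell, so the share of respiratory genes that rose, 9.76%, lay near the background. The 8 genes that rose were Ndufc2, Ndufb10, Ndufa6, Ndufs7 and Ndufb11 of complex I, Cox8a and Cox6a1 of complex IV, and Atp5md of ATP synthase. Ndufs1 of complex I fell. The median log2 fold change of the 82 genes was 0.39, beside 0.01 for all rows, and 66 of them (80.5%) had a value above 0, beside 50.6% of rows. All 4 tumours lay above both Ptc+/- GNP arrays for 30 genes (36.6%, background 19.9%) and below them for 4 (4.88%, background 22.1%), namely Ndufs1, Sdha, Cox11 and Cox8b. Ribosomal protein genes had similar shares. Of 30 cytoplasmic ones, a list added after the data were seen, 80% were above 0 and 36.7% had all tumours above both Ptc+/- arrays. For 72 mitochondrial ones these shares were 75% and 29.2%. With 2 control arrays these counts are descriptions and no test was made over any of these lists. With each array centred on its median instead, 5 genes rose and 2 fell, and the median of all rows was then 0.13.

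The largest rise was that of Ndufc2, an accessory subunit of the membrane arm of complex I. Its log2 intensity was 8.09 and 8.49 on the Ptc+/- arrays, 8.71 and 8.91 on the Gli1-FLAG arrays, and 10.13, 8.92, 9.57 and 10.50 in tumours. Every tumour lay above every GNP array, though medulloblastoma 2 only narrowly. Its log2 fold change over Ptc+/- GNPs was 1.49 ± 0.41, a 2.81-fold rise (adjusted p = 0.0475). Ndufb10, another membrane-arm subunit, stood at 7.66 and 7.98 on the Ptc+/- arrays, 8.12 and 8.16 on the Gli1-FLAG arrays, and 8.998, 8.60, 8.57 and 9.55 in tumours. It rose by 1.11 ± 0.29 (adjusted p = 0.0398), with no overlap between tumours and GNPs. Ndufb11, an X-linked membrane-arm subunit, rose by 0.86 ± 0.20 (adjusted p = 0.0299), from 9.73 and 9.93 to between 10.32 and 10.99.

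Ndufa6, an accessory subunit that binds the mitochondrial acyl carrier protein, gave tighter values. It stood at 9.36 and 9.45 on the Ptc+/- arrays, 9.81 and 9.79 on the Gli1-FLAG arrays, and 10.37, 10.22, 10.26 and 10.57 in tumours. The groups formed 3 separate steps, and the rise over Ptc+/- GNPs was 0.95 ± 0.15 (adjusted p = 0.0110). Ndufs7, a core iron-sulphur subunit next to the quinone site, showed the same order. Its values were 9.63 and 9.59, then 9.92 and 9.96, then 10.73, 10.48, 10.42 and 10.39, and it rose by 0.90 ± 0.15 (adjusted p = 0.0124). For Ndufs7, medulloblastoma 4 was the lowest tumour.

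The gene that fell, Ndufs1, encodes the largest core subunit of complex I, which holds iron-sulphur clusters of the electron path. Its log2 intensity was 9.76 and 9.60 on the Ptc+/- arrays, 9.52 and 9.40 on the Gli1-FLAG arrays, and 9.0, 9.08, 8.84 and 8.996 in tumours. The tumours spanned a narrow range below all GNP arrays, and the change was -0.70 ± 0.14 (adjusted p = 0.0195), a 1.63-fold fall. The core subunit Ndufv1, which binds NADH, did not pass (0.10 ± 0.17, adjusted p = 0.726). Grouped after the values were seen, 6 measured core subunits held 1 that rose (16.7%) and 1 that fell. Their median log2 fold change was 0.24. The 25 accessory subunits held 4 that rose (16%) and none that fell, with a median of 0.54. Across all rows, 7.54% rose and 8.92% fell. The difference between core and accessory subunits was not tested.

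Over all 31 complex I subunits, 5 rose (16.1%, beside 7.54% of all rows), 1 fell and the median log2 fold change was 0.52. Shares per complex rest on few genes and were not tested. Among those that did not pass was Ndufa9, a subunit beside the quinone site (0.27 ± 0.17, adjusted p = 0.304). Ndufa4, counted here by its name although its protein is now placed in complex IV, did not pass either, with tumours at 10.95 to 11.65 against 10.62 and 10.90 in Ptc+/- GNPs (0.66 ± 0.22, adjusted p = 0.0841). None of the 5 complex I assembly factors named Ndufaf passed, and their median was 0.01. The lowest p among them belonged to Ndufaf3 (0.39 ± 0.25, adjusted p = 0.331) and Ndufaf1 (0.15 ± 0.21, adjusted p = 0.654).

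**Figure D2:**
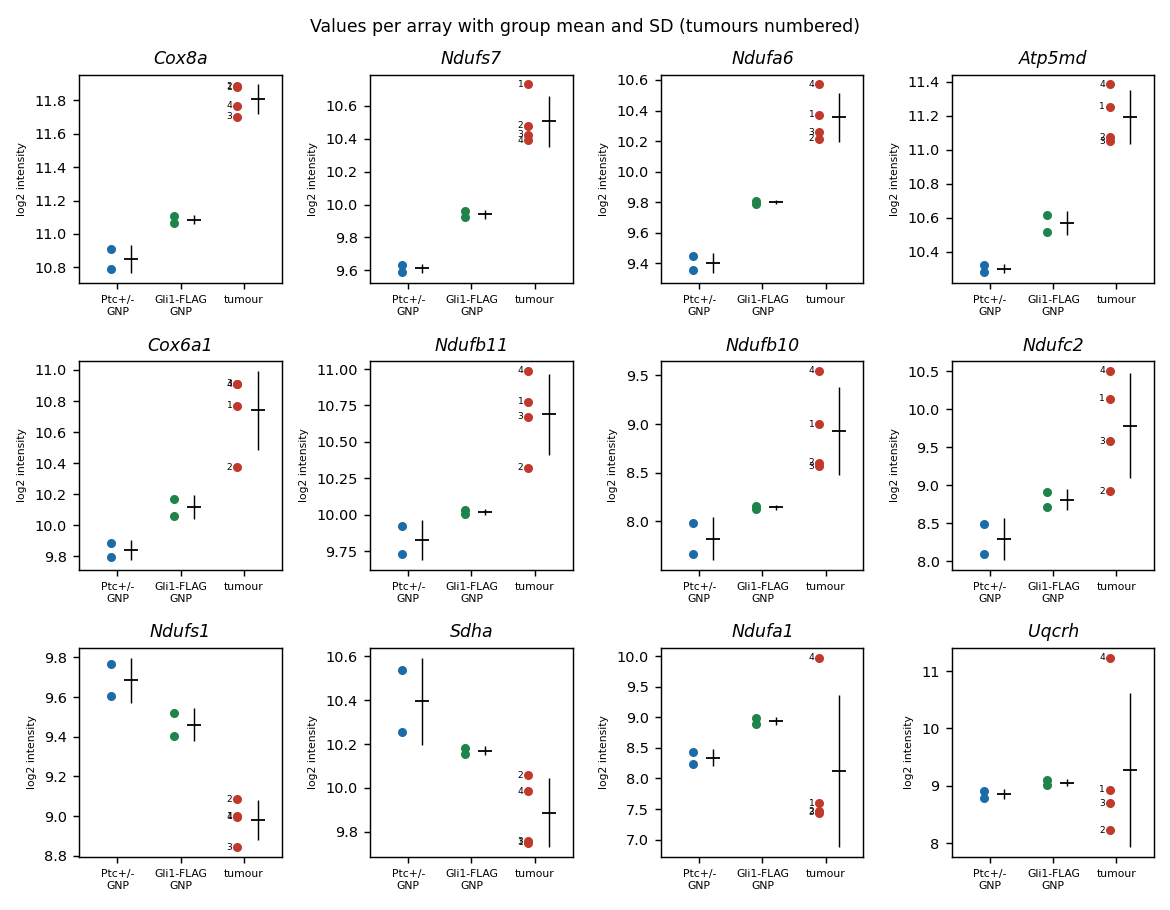
Log2 intensity (vertical axis, a range of its own per gene) of 12 genes on each array, with points for arrays (tumours numbered) and a tick and bar for group mean and SD, for Ptc+/- GNPs (n = 2), Gli1-FLAG GNPs (n = 2) and medulloblastomas (n = 4). Cox8a and Ndufa6 lie in 3 separate steps, Ndufs1 is lowest in tumours, and Uqcrh reaches 11.23 in medulloblastoma 4.

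Complex II, which also belongs to the tricarboxylic acid cycle, had no gene past the threshold among 4, and its median log2 fold change was -0.08. Sdha, the flavin-bearing catalytic subunit, came nearest. It stood at 10.53 and 10.26 on the Ptc+/- arrays, 10.15 and 10.18 on the Gli1-FLAG arrays, and 9.75, 10.06, 9.76 and 9.99 in tumours, with all tumours below all GNP arrays (-0.51 ± 0.16, adjusted p = 0.0719). Sdhb, the iron-sulphur subunit, had a value of 0.07 ± 0.31 (adjusted p = 0.893), and the membrane anchor Sdhd one of -0.14 ± 0.23 (adjusted p = 0.702).

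Complex III likewise had no gene past the threshold among 9, with a median of 0.38. Uqcrq, a small subunit near the cytochrome b core, just missed it. Its arrays read 8.80 and 9.35 on the Ptc+/- arrays, 9.83 and 9.77 on the Gli1-FLAG arrays, and 10.39, 9.89, 9.66 and 10.65 in tumours (1.07 ± 0.30, adjusted p = 0.0512). Tumours and Gli1-FLAG GNPs overlapped for this gene, and both lay above Ptc+/- GNPs. Uqcr11, a small peripheral subunit, had 1.01 ± 0.35 (adjusted p = 0.0893). The large core proteins Uqcrc1 and Uqcrc2 had values of -0.05 ± 0.20 and -0.20 ± 0.16 (adjusted p = 0.889 and 0.427). Uqcrfs1, the Rieske iron-sulphur protein, had 0.05 ± 0.39 (adjusted p = 0.947), and Cyc1, which encodes cytochrome c1, had 0.38 ± 0.16 (adjusted p = 0.153).

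Cycs, which encodes cytochrome c, an electron carrier that also triggers apoptosis once released, did not pass. It read 9.97 and 10.14 on the Ptc+/- arrays, 10.11 and 10.15 on the Gli1-FLAG arrays, and 11.13, 10.25, 11.21 and 11.34 in tumours. Tumours 1, 3 and 4 lay about 1 log2 unit above the GNPs and medulloblastoma 2 stood close to them (0.93 ± 0.30, adjusted p = 0.0747).

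Complex IV had 13 measured subunits, of which 2 rose (15.4%, beside 7.54% of all rows) and none fell. The median log2 fold change was 0.64. Cox8a, the isoform of subunit VIII found in most tissues, had the smallest SD among tumours of the 82 genes, at 0.09. It stood at 10.91 and 10.79 on the Ptc+/- arrays, 11.07 and 11.10 on the Gli1-FLAG arrays, and 11.88, 11.89, 11.70 and 11.77 in tumours. The steps between groups exceeded the spread within them, and tumours rose 1.95-fold over Ptc+/- GNPs (log2 fold change 0.96 ± 0.13, adjusted p = 0.00786). Cox6a1, the non-muscle isoform of subunit VIa, read 9.79 and 9.89, then 10.06 and 10.17, then 10.77, 10.37, 10.91 and 10.91, and rose by 0.90 ± 0.19 (adjusted p = 0.0220).

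The alternative isoforms of these subunits did not pass. Cox6a2, the muscle isoform, lay between 6.60 and 7.67 on all arrays (0.64 ± 0.22, adjusted p = 0.0915). Cox8b lay between 4.23 and 5.47 and was lower in all tumours than on both Ptc+/- arrays, while overlapping the Gli1-FLAG arrays, at -0.58 ± 0.26 (adjusted p = 0.173). Cox4i1, the common isoform of the regulatory subunit IV, had 0.43 ± 0.32 (adjusted p = 0.391), and its alternative Cox4i2 had 0.01 ± 0.43 (adjusted p = 0.989). Cox7b and Cox7b2 had 0.78 ± 0.30 and 0.97 ± 0.53 (adjusted p = 0.119 and 0.242). The remaining subunits named by role, Cox5a, Cox6b1 and Cox7a2, had 0.86 ± 0.31, 0.62 ± 0.39 and 0.39 ± 0.36 (adjusted p = 0.10, 0.307 and 0.497).

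Complex IV assembly factors of the Cox series held 7 genes, none past the threshold, with a median of 0.10. Cox11, which delivers copper to subunit I, was lower in all tumours than in both Ptc+/- GNPs, at -0.60 ± 0.20 (adjusted p = 0.0848). Cox14, which acts in the synthesis and assembly of subunit I, had 0.88 ± 0.42 (adjusted p = 0.190).

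ATP synthase had 12 measured genes, of which 1 rose (8.33%, beside 7.54% of all rows) and none fell. The median log2 fold change was 0.22. Atp5md, a small membrane subunit tied to the pairing of ATP synthases, read 10.28 and 10.32 on the Ptc+/- arrays, 10.52 and 10.62 on the Gli1-FLAG arrays, and 11.25, 11.07, 11.05 and 11.39 in tumours. It rose by 0.89 ± 0.15 (adjusted p = 0.0128), with no overlap between any groups. Its second, dimmer row gave 0.64 (adjusted p = 0.0794), on the other side of the threshold, and there tumours overlapped the Gli1-FLAG arrays. Of the other genes with a second row, Ndufb4 had 0.54 and 0.46 on its brighter and dimmer row, and Cox7c had 0.70 and 0.11, none of them past the threshold. The catalytic subunits had fold changes near 0. Atp5a1 had 0.01 ± 0.15 and Atp5b 0.00 ± 0.14 (adjusted p = 0.971 and 0.986). Atp5b lay between 11.97 and 12.21 on all 8 arrays. Atp5g1, Atp5g2 and Atp5g3 encode the same mature c subunit of the rotor and had 0.58 ± 0.26, 0.60 ± 0.20 and 0.06 ± 0.31 (adjusted p = 0.170, 0.0778 and 0.905).

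The array that is left out decided the count of calls. Without either Ptc+/- GNP array none of the 9 genes passed, while all rows called fell from 2687 to 128 or 460. A Gli1-FLAG array adds here only to the normalization and the estimate of spread. Without either one, fewer of the 82 genes and of all rows passed, while the median of the 82 genes stayed at 0.39. Without medulloblastoma 1, 5 rose and 1 fell. Without medulloblastoma 2, 13 rose and 1 fell, and without medulloblastoma 4, 9 rose and 4 fell (Ndufs1, Ndufa1, Ndufs4 and Cox11). All rows called numbered 1751, 2345 and 2898 without medulloblastomas 1, 2 and 4 in turn. The median log2 fold change of the 82 genes also rested in part on medulloblastoma 4, being 0.21 without it with 56 of 82 genes above 0.

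**Figure D3:**
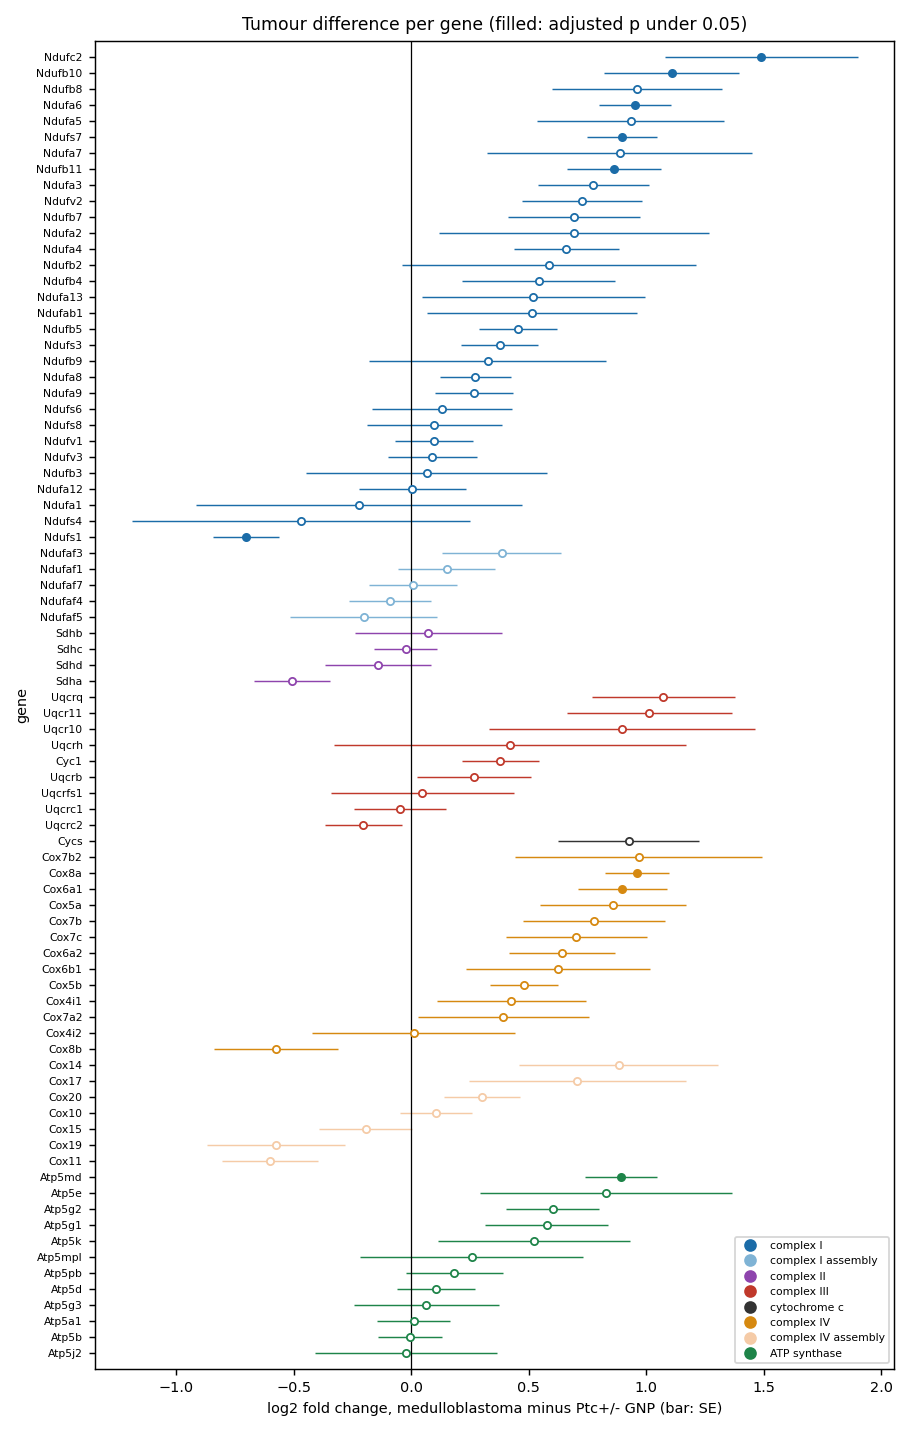
Log2 fold change of each of the 82 genes in medulloblastomas against Ptc+/- GNPs (horizontal axis, bars for SE), grouped and coloured by complex, with filled points for an adjusted p under 0.05. The 8 filled points above 0 and the 1 below belong to complexes I and IV and ATP synthase, and 66 of the 82 points lie above 0.

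Nuclear respiratory genes are often read out by the transcription factors NRF1, GABP and YY1, whose motifs are short. RefSeq promoter windows of 300 bases around the transcription start (build GRCm38.p6) were found for 68 of the 82 genes, 71 windows in all. The NRF1 motif, the letters GCGCA and GCGC with any 1 base between them, sought on both strands as were the others, was present in 15 windows (21.1%), beside 4.6% of 32851 windows of all genes. The GABP motif of the ETS family, CCGGAAGT, was present in 7 (9.86%, beside 3.89%). The YY1 motif AAGATGGCG was present in 6 (8.45%, beside 1.4%). All 8 genes that rose had a window and 4 of them held a motif, namely Cox6a1, Cox8a, Ndufs7 and Ndufa6. The share with any of the motifs was not counted over the list or over all windows, so this count has no background beside it. A match is a run of letters and does not show that a factor binds there. The windows of 3 of these genes are shown, 5′ to 3′ on the strand of the gene with the motif in capitals, because they are among the genes that rose and each holds a different motif. Cox6a1 (chr5:115348909-115349208, minus strand) has 2 NRF1 matches, the first starting at position -162 from the start site. Cox8a (chr19:7217567-7217866, minus strand) has 2 GABP matches read on the opposite strand, and Ndufs7 (chr10:80249199-80249498, plus strand) has 1 YY1 match past its start.
Cox6a1: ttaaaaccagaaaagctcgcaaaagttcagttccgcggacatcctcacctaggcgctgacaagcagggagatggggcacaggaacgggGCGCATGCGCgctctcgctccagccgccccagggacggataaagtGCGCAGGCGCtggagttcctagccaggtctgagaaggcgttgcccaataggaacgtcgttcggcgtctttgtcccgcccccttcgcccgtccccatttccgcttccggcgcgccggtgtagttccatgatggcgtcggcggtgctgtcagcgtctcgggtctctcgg
Cox8a: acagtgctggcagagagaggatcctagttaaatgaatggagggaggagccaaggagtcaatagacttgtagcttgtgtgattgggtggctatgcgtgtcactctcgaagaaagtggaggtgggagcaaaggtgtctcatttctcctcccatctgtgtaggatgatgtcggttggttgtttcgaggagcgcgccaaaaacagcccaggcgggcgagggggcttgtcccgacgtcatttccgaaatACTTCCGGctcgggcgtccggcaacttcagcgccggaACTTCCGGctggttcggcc
Ndufs7: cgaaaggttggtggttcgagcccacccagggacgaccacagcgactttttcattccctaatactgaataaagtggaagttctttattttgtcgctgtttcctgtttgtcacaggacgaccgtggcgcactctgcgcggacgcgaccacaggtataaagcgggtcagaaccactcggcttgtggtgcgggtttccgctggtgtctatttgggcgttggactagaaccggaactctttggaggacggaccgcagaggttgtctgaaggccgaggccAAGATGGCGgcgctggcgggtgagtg

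Gli1-FLAG GNPs were then compared with Ptc+/- GNPs of the same age, 2 arrays against 2. The former carry a driven Gli1 and the latter an altered Ptch1 allele. Sex or pooling of animals cannot be told apart from genotype in this comparison. No respiratory gene passed the threshold and none reached an unadjusted p of 0.05. That last count depends on the spread pooled from the tumours, since 17 genes had an unadjusted p under 0.05 with only the GNP arrays fitted, 11 with array weights and 7 without medulloblastoma 4. Of all rows, 0 (0%) passed and 525 (3.22%) had an unadjusted p under 0.05, with all arrays fitted and no weights. The share of all rows was not counted in the other fits, so the 17, 11 and 7 genes have no background beside them. Differences nonetheless lay mostly on 1 side. The log2 fold change was above 0 for 75 of the 82 genes (91.5%), beside 50.1% of rows, and its median was 0.24, beside 0.00 for all rows. Both Gli1-FLAG arrays lay above both Ptc+/- arrays for 56 genes (68.3%, background 22.3%) and below them for 3 (3.66%, background 24%). Ribosomal protein genes shared this shift. Of 30 cytoplasmic ones, a list added after the data were seen, 96.7% were above 0 and 66.7% had both Gli1-FLAG arrays above. For 72 mitochondrial ones these shares were 84.7% and 59.7%. Respiratory genes move together on an array, so the 82 genes are not independent observations.

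The lowest p-values in that comparison belonged to Ndufa6 (0.40 ± 0.18), Uqcrq (0.72 ± 0.35) and Ndufs7 (0.33 ± 0.17), each with an adjusted p of 1. By complex, the median log2 fold change was 0.30 for complex I, 0.15 for complex II, 0.20 for complex III, 0.28 for complex IV and 0.29 for ATP synthase. The 3 genes below both Ptc+/- arrays were Ndufs1, Sdha and Cox8b, named here because they are so few. Ptc+/- GNP 1 lay below Ptc+/- GNP 2 for 56 of the 82 genes (68.3%, beside 51.2% of rows). The median of the 82 genes was 0.17 without Ptc+/- GNP 1 and 0.30 without Ptc+/- GNP 2.

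Tumours against Gli1-FLAG GNPs form the third comparison, which shares arrays with both others. Cox8a rose by 0.72 ± 0.13 (adjusted p = 0.0221) and Atp5md by 0.62 ± 0.15 (adjusted p = 0.0445), and no gene fell. Neither call held with median centring, with the replicate number as a block, without either Gli1-FLAG array or without medulloblastoma 1. Both were also lost without Ptc+/- GNP 1 and medulloblastoma 4 together. The call of Atp5md was further lost without either Ptc+/- array, without medulloblastoma 2 or 4, with only these groups fitted and with its rows averaged. The dimmer row of Atp5md gave 0.11 (adjusted p = 0.772) in this comparison, with tumours overlapping the Gli1-FLAG arrays. Without medulloblastoma 4, Cox19, Ndufa1 and Ndufs4 fell. Of all rows, 10.3% passed, 4.65% rising and 5.63% falling, beside 2.44% of the respiratory genes that rose. The median log2 fold change was 0.08, and 48 of the 82 genes (58.5%) lay above 0, beside 50.3% of rows. All tumours lay above both Gli1-FLAG arrays for 18 genes (22%, background 19.6%) and below them for 4 (4.88%, background 21.4%), namely Ndufs1, Sdha, Uqcrc2 and Cox19. The median was -0.023 without medulloblastoma 4, so its sign rested on that tumour. On the rows used, all 8 genes that rose against Ptc+/- GNPs also had every tumour above both Gli1-FLAG arrays. They also had both Gli1-FLAG arrays above both Ptc+/- arrays. The 8 genes were chosen for a rise over the same Ptc+/- arrays. Both Gli1-FLAG arrays lay above both Ptc+/- arrays for 56 of the 82 genes. How many of all rows that rose had this order was not counted. Since the comparisons share arrays, this order is a description.

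At the median, tumours differed from each other more in these genes than over all rows, though not in every gene. The SD among tumours was above the median of all rows for 51 of the 82 genes. The median SD among tumours was 0.422 log2 units for the 82 genes and 0.299 for all rows, whereas it was 0.112 beside 0.140 between Ptc+/- arrays and 0.0517 beside 0.0899 between Gli1-FLAG arrays. The median of the 82 genes, relative to the mean of the Ptc+/- GNPs, was 0.43, 0.10, 0.16 and 0.89 in medulloblastomas 1 to 4, and 0.25 in both Gli1-FLAG GNPs. Medulloblastoma 4 was the highest tumour for 56 genes (68.3%, beside 28.1% of rows). In contrast, medulloblastoma 2 was the lowest for 39 (47.6%, beside 29.5%). This order was not particular to the respiratory genes. Among 30 cytoplasmic ribosomal protein genes, a list added after the data were seen, medulloblastoma 4 was the highest for 25 (83.3%). Medulloblastoma 2 was the lowest for 26 of them (86.7%).

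Uqcrh, the acidic hinge protein of complex III, had the largest SD among tumours, 1.34. It read 8.79 and 8.91 on the Ptc+/- arrays, 9.10 and 9.01 on the Gli1-FLAG arrays, and 8.93, 8.22, 8.70 and 11.23 in tumours. Medulloblastoma 4 alone stood far above the GNPs. Ndufa1, an X-linked membrane-arm subunit of complex I, read 8.44 and 8.24 in Ptc+/- GNPs and 7.59, 7.46, 7.44 and 9.97 in tumours. Ndufs4, an accessory subunit whose loss in mice causes a Leigh-like brain disease, read 8.34 and 8.50 in Ptc+/- GNPs and 7.28, 7.03, 7.64 and 9.85 in tumours. In both genes medulloblastomas 1 to 3 lay below the Ptc+/- GNPs and medulloblastoma 4 above. Both genes were picked after their values were seen, for this split. Only 1 other gene, Ndufaf5, had this split of tumours, so that 3 of 82 genes (3.66%) showed it beside 2.03% of rows.

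**Figure D4:**
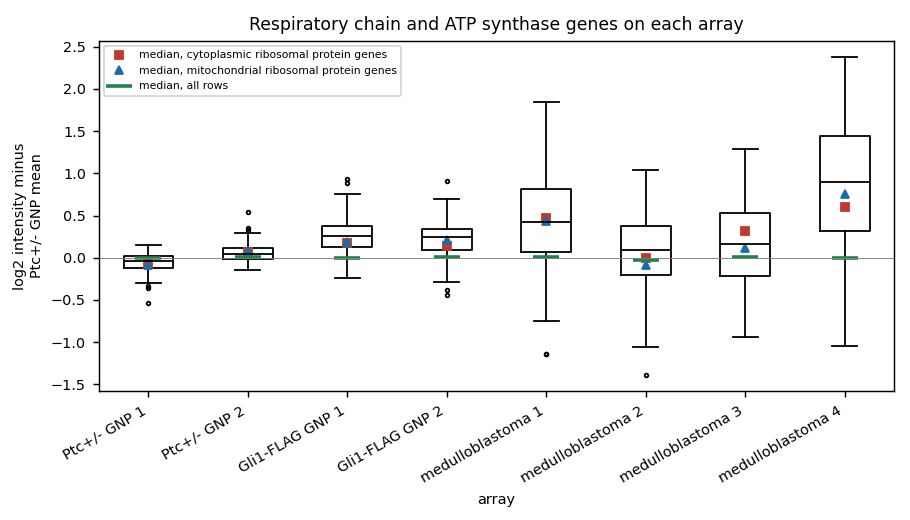
Box plots over the 82 genes of log2 intensity minus the mean of the Ptc+/- GNPs for each of the 8 arrays (line for the median, box for the quartiles), with the medians of cytoplasmic ribosomal (squares), mitochondrial ribosomal (triangles) and all rows (dashes). Medians of the 82 genes are 0.25 in both Gli1-FLAG GNPs and 0.43, 0.10, 0.16 and 0.89 in medulloblastomas 1 to 4.

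Other measures followed the level of the respiratory genes across tumours to different degrees, and their part in the result was not tested. The median of 30 cytoplasmic ribosomal protein genes, a list added after the data were seen, was 0.47, -0.01, 0.32 and 0.60 above the Ptc+/- mean in medulloblastomas 1 to 4, and 0.17 and 0.14 in the Gli1-FLAG GNPs. Deposited median intensity was also highest in medulloblastoma 4, at 170, 186, 134 and 310 in medulloblastomas 1 to 4. Otherwise it did not follow the order of the respiratory genes, which were lowest in medulloblastoma 2. Between the Ptc+/- GNPs it was 283 and 125, while the respiratory genes lay mostly lower on the first of these arrays. Summed intensity of 10 markers of mature granule neurons ran the other way, at 9459, 18560, 11890 and 4995 in medulloblastomas 1 to 4, against 10740 to 11050 in Ptc+/- GNPs and 10260 to 10310 in Gli1-FLAG GNPs. None of these 10 rose or fell, none was at 0, and Gabra6, a defining one, lay under the 25th percentile on both Ptc+/- arrays. Microglial markers summed to 7358, 4766, 3497 and 8694 in the tumours, against 1917 to 2384 and 2287 to 2620 in the GNP groups, and 3 of 10 rose (C1qa, C1qb and C1qc, complement genes).

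Markers of other cells differed between groups as well. Endothelial and pericyte markers summed to 1203 to 1291 in tumours, 1952 to 5042 in Ptc+/- GNPs and 3051 to 3118 in Gli1-FLAG GNPs, and 4 of 10 fell in tumours (Kdr, Pecam1, Tek and Cldn5). Oligodendrocyte-lineage markers summed to 2319 to 5771 in tumours, 2273 to 2303 in Ptc+/- GNPs and 3488 to 3733 in Gli1-FLAG GNPs, and 3 of 8 rose in tumours (Olig1, Olig2 and Pdgfra). The other 5, all myelin genes, had log2 fold changes below 0 that did not pass, and the median of the list was -0.66. Astrocyte and Bergmann glia markers summed to 702.9 to 4602 in tumours, 3945 to 5153 in Ptc+/- GNPs and 5550 to 5990 in Gli1-FLAG GNPs, with none of 8 past the threshold. Purkinje cell and interneuron markers summed to 335.6 to 6917 in tumours, 666.7 to 696.0 in Ptc+/- GNPs and 742.2 to 802.2 in Gli1-FLAG GNPs, with 1 of 8 rising (Pvalb) and 1 falling (Pax2). Of 2 erythroid markers, which summed to 66.38 to 89.88 in tumours, 143.1 to 156.1 in Ptc+/- GNPs and 94.5 to 96.0 in Gli1-FLAG GNPs, 1 fell (Alas2). In such whole samples, fewer cells of a type and less RNA per cell cannot be told apart.

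Related mitochondrial genes were compared between tumours and Ptc+/- GNPs by lists chosen with earlier results known. Across all rows, 7.54% rose and 8.92% fell in this comparison. Of 72 mitochondrial ribosomal proteins, 8 rose and 1 fell, with a median log2 fold change of 0.26. Mrps11 rose by 0.89 ± 0.17 (adjusted p = 0.0158), Mrpl14 by 1.16 ± 0.23 (adjusted p = 0.0183), and Mrpl1 fell by 0.83 (adjusted p = 0.0206). Relative to the Ptc+/- mean, the median of these genes was 0.43, -0.09, 0.12 and 0.76 in medulloblastomas 1 to 4, the order in which the respiratory genes stood. Of the 30 cytoplasmic ribosomal protein genes, 3 rose (Rpl12, Rpl13a and Rpl19) and 1 fell (Rps18), with a median of 0.37.

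The tricarboxylic acid cycle, which feeds the chain with NADH and succinate, had 16 measured genes with a median of -0.18. None rose, and Dld, the shared dihydrolipoamide dehydrogenase of its dehydrogenase complexes, fell by 0.72 (adjusted p = 0.0331). Of 18 other assembly factors, 1 rose and 4 fell, with a median of -0.05. Lrpprc, which stabilizes mitochondrial mRNAs, rose by 0.62 ± 0.16 (adjusted p = 0.0383). Foxred1, Tmem126b and Acad9, all factors for building complex I, fell with log2 fold changes of -0.80, -1.10 and -0.60 (adjusted p = 0.0162, 0.0231 and 0.0246), as did Uqcc1, a complex III factor (-0.67, adjusted p = 0.0497).

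Among 15 regulators of mitochondrial biogenesis, Esrra, a nuclear receptor that drives respiratory genes, rose by 0.74 ± 0.16 (adjusted p = 0.0226), and Gabpb1, the partner subunit of GABP, fell with a value of -0.90 ± 0.18 (adjusted p = 0.0188). The other 13 did not pass, and the median was 0.08. Of 10 carriers of ATP and substrates, Slc25a11, the 2-oxoglutarate carrier, rose by 0.73 ± 0.13 (adjusted p = 0.0140) and none fell. Of 16 genes for uncoupling, alternative electron entry and reactive oxygen, Txn2, the mitochondrial thioredoxin, rose by 1.00 ± 0.17 (adjusted p = 0.0121). In that list 3 genes fell: Etfdh, which passes electrons from fat oxidation to ubiquinone (adjusted p = 0.0301), the carrier Slc25a14 (adjusted p = 0.0415) and catalase, Cat (adjusted p = 0.0459), with log2 fold changes of -0.86, -0.56 and -0.58.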

How the data were processed

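Per the labels' protocols, total RNA (Trizol) was depleted of ribosomal RNA, and labelled cDNA was hybridised to Affymetrix whole-transcript arrays. The authors deposited a linear intensity per transcript cluster for 16317 rows, and the processing notes of the submitters name build mm8. How background, probe summary and scaling were handled is not given in the sources used here. Array medians differed 2.84-fold, so intensities were quantile normalized over 8 arrays, values under 0 set to 0 and log2(intensity + 1) taken, which understates changes of dim rows. R 4.3.3 and limma 3.58.1 fitted 3 group means with lmFit and eBayes over all rows, with two-sided p-values, Benjamini-Hochberg adjustment over all rows and a threshold of 0.05. The fit was tested on simulated data.

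The number of arrays limits the precision. The labels call replicates biological, but whether each is a different animal is unstated, so the p-values cover only how these samples vary, and some of that may be technical. Members, lists and tests were chosen with earlier results of these data known. Genes were named by rule, taking those past the threshold, the 2 lowest p-values per complex, subunits fixed by role or isoform, and the extremes in brightness and spread among tumours. The rule also took up to 3 genes per related list and, in the GNP comparison, the 3 lowest p-values. Some genes behind small counts were named too, after their values were seen. An exact permutation test cannot reach the threshold with 2 arrays in a group and was not used. Alternatives covered normalization, offset, a filter on dim rows, the arrays fitted, the replicate block, eBayes settings, array weights, the row per symbol and leaving out each array.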

Additional observations from a re-analysis of the deposited data

Results flagged for a closer look

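Among the 4 tumours, 1 array stood apart from the other 3 by more than Dixon's critical value of 0.829 for 2 of the 82 genes. For Ndufa1 the gap of medulloblastoma 4 to the next tumour was 0.940 of the whole range, and for Cox4i1 it was 0.847, with medulloblastoma 4 highest in both. Chance flags about 1 in 20 groups, and 2.44% of the respiratory genes were so marked beside 5.2% of all rows.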

How the results depend on the processing

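In tumours against Ptc+/- GNPs, where 8 genes rose and 1 fell, 5 rose and 2 fell with arrays centred on their medians, 14 and 3 with dim rows left out, 4 and 0 with only the 2 groups in the fit, and 14 and 2 with trend and robust eBayes. With array weights 13 rose, and with an offset of 16, 11 rose and 2 fell. Leaving out 1 array gave 0 to 13 rises and 0 to 4 falls. Cox8a, Ndufa6, Ndufs7 and Atp5md passed in 15 of 18 alternatives, missing only where a Ptc+/- array was left out. Ndufs1 passed in 11, Cox6a1 and Ndufb10 in 10, Ndufb11 in 9 and Ndufc2 in 7. The median of 0.39 ranged from 0.21 to 0.52 with 1 array left out. In tumours against Gli1-FLAG GNPs, where 2 rose and 0 fell, 0 rose with median centring, 4 with cyclic loess, 4 with the offset (1 fell), 7 with dim rows left out (1 fell), 1 with the 2 groups only, 7 with trend and robust eBayes (1 fell), 10 with array weights (2 fell), 1 with rows of a symbol averaged, and 0 to 5 with 1 array left out (0 to 3 fell). Its median of 0.08 ranged from -0.023 to 0.20. In the GNP comparison no gene passed in any alternative, and the median of 0.24 ranged from 0.17 to 0.30. Without both Ptc+/- GNP 1 and medulloblastoma 4, an alternative chosen after seeing the data, 0 rose and 0 fell against Ptc+/- GNPs, 0 rose and 2 fell against Gli1-FLAG GNPs, and the medians of the 3 comparisons were 0.17, 0.17 (GNPs) and -0.023. The causes were not tested. Replicate numbers did not pair samples (correlations of deviations -0.011, -0.0056 and -0.073). With the replicate block, in which medulloblastomas 3 and 4 drop out, 4 rose and 2 fell against Ptc+/- GNPs (median 0.23), and 0 rose and 2 fell against Gli1-FLAG GNPs (median -0.017). Over all rows, the 2687 calls against Ptc+/- GNPs became 1197 and the 1677 against Gli1-FLAG GNPs became 811 with only the 2 groups fitted. The latter were 3566 with array weights and 1066 with the block. They were 1488 with median centring, 2111 with dim rows left out and 2164 with trend and robust eBayes. Calls against Ptc+/- GNPs were 3065 with median centring, 3192 with the offset and 2932 with dim rows left out. They were 3203 with trend and robust eBayes and 3365 with array weights. Leaving out 1 array gave at least 128 and 62 calls. The GNP comparison gave 0 to 4.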
